A study of Mus musculus with 8 samples.

Results

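The contractile genes of smooth muscle were described in the lungs of mouse embryos. The set holds 9 genes: Acta2, Actg2, Myh11, Tagln, Cnn1, Des, Smtn, Lmod1 and Mylk. Every probe of an Illumina bead array whose platform symbol is one of these names was taken, which gave 15 of 25697 probes and 9 of the 16593 genes that the platform annotation names. Acta2 had 4 probes, Smtn had 3, Mylk had 2, and each of the others had 1. Of these, 14 probes of 8 genes were above background and entered the tests, among 14965 probes tested in all. The only probe of Cnn1 was not above background on any array.

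The lungs came from c57Bl6/J embryos at E18.5, close to birth. Some embryos were wild type and the others had a mutation labelled SMRTmRID, written mRID below. SMRT is a corepressor that nuclear hormone receptors recruit through its receptor interaction domains. For 2 days from E16.5 their mothers were fed either control chow or chow holding 0.15% PTU, propylthiouracil, a drug that blocks the synthesis of thyroid hormone. Each genotype was studied on each diet, which makes 4 groups. Each group was measured on 2 arrays, named A and B here, that the labels call technical replicates. A group therefore stands for 1 RNA sample, and the p-values below cover the error between arrays of an RNA sample and no variation between animals. The number of embryos behind an RNA sample and the zygosity of the mutation are not given in the sources used here. The mutation itself was not checked on these arrays.

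Smooth muscle of the fetal lung wraps the airways and the blood vessels. Its cells contract when myosin light chain kinase phosphorylates myosin, which then pulls on filaments of smooth muscle actin. Many genes of the contractile apparatus are transcribed under serum response factor and its coactivator myocardin, which act at a DNA element called the CArG box. In whole lung RNA, fewer cells of a type and less RNA per cell cannot be told apart.

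Values are normalized log2 signals. A probe passed when its adjusted p (limma with Benjamini-Hochberg adjustment over all tested probes) was below 0.05 and its change was at least 1.5-fold. The mean signal of an array lay between 294 and 376, and 54.7% to 58.8% of its probes had a detection p below 0.05. Log2 signals of all tested probes correlated at 0.996 between the arrays of a group and at 0.988 to 0.994 between groups. Arrays of a group had a median SD of 0.10 over these probes.

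The mRID lungs on control chow had less signal than wild type for Actg2, the actin of visceral smooth muscle, by 0.77 on the log2 scale. Actg2 was the 1 of 14 probes that passed, and it was lower, against 1.42% of all tested probes (67 higher and 146 lower). On the adjusted p alone, 3 of the 14 were below 0.05 (one each of Acta2, Actg2 and Myh11), against 3.8% of all probes. All 14 differences were below 0, where 48.5% of those of all tested probes were. Their median was -0.18, against 0.01 over all probes.

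PTU in wild-type lungs went with less signal for Actg2 and for Myh11, the myosin heavy chain of smooth muscle, by 0.97 and 0.61 on the log2 scale. These were the 2 of 14 probes that passed, against 3.35% of all probes (154 higher and 348 lower). On the adjusted p alone, 6 of 14 were below 0.05, against 9.88% of all probes, and they belonged to Acta2, Actg2, Myh11 and Mylk. Of the 14 differences, 13 were below 0, with a median of -0.35 against 0.02 over all probes.

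PTU in mRID lungs gave differences of -0.02 for Actg2 and 0.22 for Myh11, and neither passed. None of the 14 probes passed in the limma fit, against 3.67% of all probes (431 higher and 118 lower). An unadjusted p below 0.05 was found for 6 of them, against 25.3% of all probes. On the adjusted p alone 2 of 14 were below 0.05, against 10.2% of all probes, and both were Acta2 probes with more signal under PTU. The median difference was 0.07, against -0.02 over all probes.

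Between the genotypes under PTU, mRID lungs had more signal than wild type for Mylk, the myosin light chain kinase, by 0.62 on the log2 scale at 1 of its 2 probes. This was the 1 of 14 probes that passed, against 4.46% of all probes (573 higher and 95 lower). On the adjusted p alone 3 of 14 were below 0.05 (both Mylk probes and 1 of Acta2), against 11.7% of all probes. The median difference was 0.18, against -0.03 over all probes.

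The genotype by diet term tests whether the PTU difference in mRID lungs departed from that in wild-type lungs. It passed with a positive sign at 5 of 14 probes, which belong to Acta2, Actg2, Myh11 and Mylk. Of all probes 9.56% passed, 945 with a positive and 486 with a negative sign. On the adjusted p alone, 7 of 14 were below 0.05, against 14.5% of all probes. The median of the term was 0.45, against -0.03 over all probes. The comparisons share groups, so these counts are not separate lines of evidence.

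**Figure D1:**
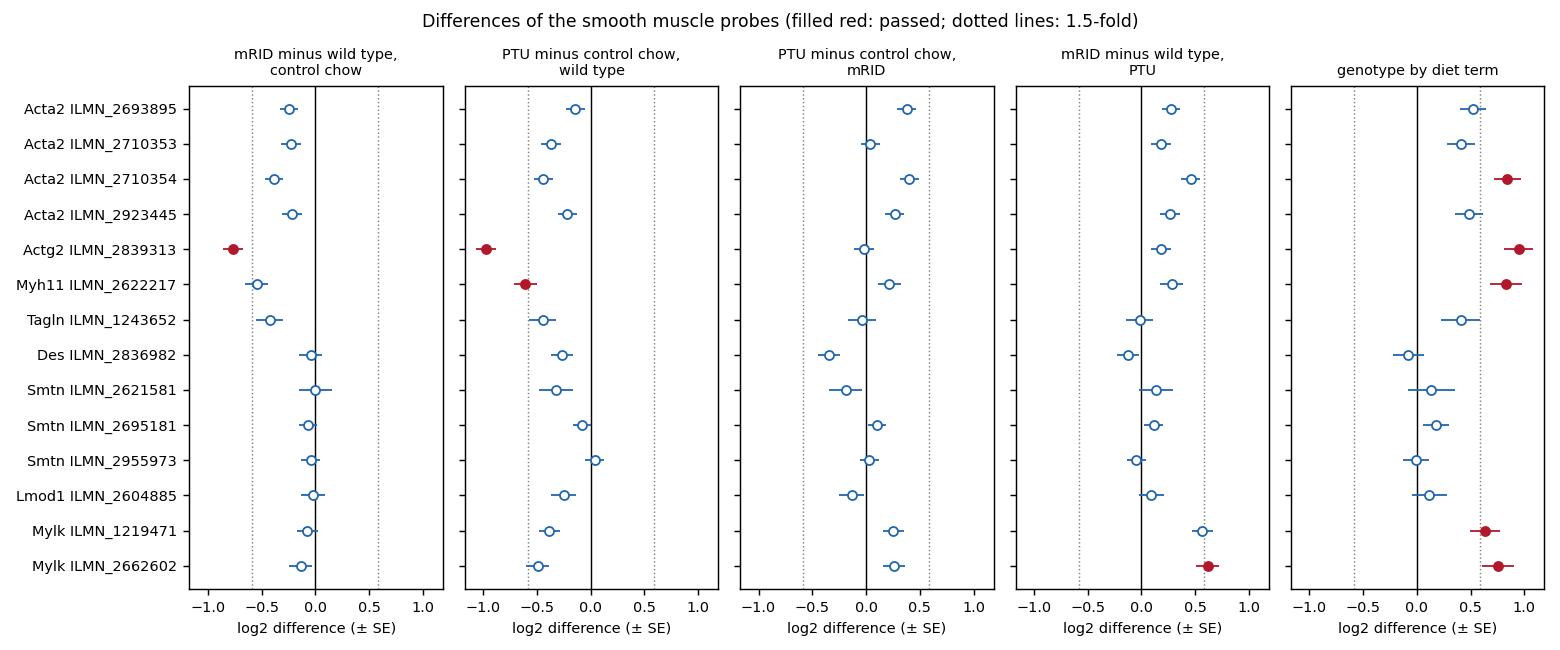
Log2 differences (± SE) of the 14 tested smooth muscle probes in the 4 comparisons between groups and for the genotype by diet term. Filled red points passed and the dotted lines mark 1.5-fold; Actg2 lies farthest to the left on control chow (-0.77) and for PTU in wild type (-0.97).

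With 1 RNA sample for each group, the error between RNA samples can be estimated only from the genotype by diet term. That term therefore cannot be tested against it. When the arrays of a group were averaged and the additive effects of genotype and diet were fitted to the 4 RNA samples, 1 residual degree of freedom remained. Differences of opposite sign average out in this fit, so it cannot decide whether probes with such differences changed. At Acta2 ILMN_2710354, genotype differences of -0.38 on control chow and 0.46 under PTU gave a genotype effect of 0.04. In that limma fit none of the 14 probes passed for genotype or for diet, and none had an unadjusted p below 0.05. Over all 14965 probes none passed either, with 362 below an unadjusted p of 0.05 for genotype and 481 for diet. The lowest adjusted p of a smooth muscle probe was 0.99989 for genotype and 0.999361 for diet.

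Acta2 encodes the alpha actin of vascular and airway smooth muscle. The bases before its transcription start are shown because they hold the CArG boxes through which serum response factor is known to act. The sequence is the 250 bases upstream of the RefSeq start of Acta2, GRCm38.p6 chr19:34255374-34255623, minus strand, and the capitals mark the 2 matches to the motif defined next.
Acta2: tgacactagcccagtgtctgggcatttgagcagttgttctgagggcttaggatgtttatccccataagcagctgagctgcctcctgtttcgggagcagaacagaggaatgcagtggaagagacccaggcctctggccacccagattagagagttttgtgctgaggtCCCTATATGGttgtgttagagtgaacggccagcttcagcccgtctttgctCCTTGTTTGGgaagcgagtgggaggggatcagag

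The motif was CCNNNNNNGG with at most 1 G or C among its 6 middle bases, which reads the same on both strands. It was searched in the upstream bases of 32851 RefSeq promoters, of which 8.59% held it. Promoters were found for 6 of the 9 genes, and Acta2 alone of these 6 held a match, with starts at -84 and -34 from the transcription start. With no G or C allowed in the middle bases, 1.47% of promoters and none of the 6 held a match. The MCAT element, CATTCC on either strand and without overlap with the CArG matches, was found in 4 of the 6 (Acta2, Lmod1, Smtn and Mylk), against 12.6% of all promoters. A match describes the letters and shows no binding.

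The 4 probes of Acta2 shared the sign of every difference, but ILMN_2710353 stood apart in mRID lungs with PTU. Probe ILMN_2710354 read 9.54 and 9.55 in wild type on control chow, 9.22 and 9.10 in mRID on control chow, 9.12 and 9.09 in wild type with PTU, and 9.60 and 9.53 in mRID with PTU. The wild-type control and mRID PTU arrays were high, the mRID control and wild-type PTU arrays were low, and the high and low pairs did not overlap.

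The genotype difference of this probe was -0.38 ± 0.09 (SE) on control chow (adjusted p = 0.0406) and 0.46 ± 0.09 under PTU (adjusted p = 0.00705). PTU went with a difference of -0.44 ± 0.09 in wild type (adjusted p = 0.0115) and 0.40 ± 0.09 in mRID (adjusted p = 0.0166). All 4 missed the fold of 1.5. Their genotype by diet term of 0.84 ± 0.12 passed (adjusted p = 0.00168, a ratio of 1.79).

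Probe ILMN_2693895 read 13.25 and 13.19 in wild type on control chow, 12.95 and 13.00 in mRID on control chow, 13.12 and 13.03 in wild type with PTU, and 13.38 and 13.33 in mRID with PTU. The mRID PTU arrays were the highest and the mRID control arrays the lowest. PTU in mRID gave 0.38 ± 0.09 (adjusted p = 0.0210) and the genotype by diet term was 0.52 ± 0.12 (adjusted p = 0.0184), both short of 1.5-fold.

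Probe ILMN_2923445 read 10.76 and 10.90 in wild type on control chow, 10.63 and 10.58 in mRID on control chow, 10.64 and 10.58 in wild type with PTU, and 10.92 and 10.83 in mRID with PTU. Here too the wild-type control and mRID PTU arrays lay above the others. The genotype by diet term was 0.48 ± 0.13 (adjusted p = 0.0333) and missed the fold.

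Probe ILMN_2710353 read 8.34 and 8.40 in wild type on control chow, 8.11 and 8.18 in mRID on control chow, 8.06 and 7.95 in wild type with PTU, and 8.12 and 8.25 in mRID with PTU. Its mRID PTU arrays overlapped those of mRID on control chow and lay below those of wild type on control chow. Its PTU difference was -0.37 ± 0.09 in wild type (adjusted p = 0.0319) and 0.04 ± 0.09 in mRID (adjusted p = 0.827), and its genotype by diet term was 0.41 ± 0.13 (adjusted p = 0.0617).

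In all 5 comparisons the 4 Acta2 probes had the same sign. Their genotype differences ran from -0.38 to -0.22 on control chow and from 0.18 to 0.46 under PTU. Their PTU differences ran from -0.44 to -0.14 in wild type and from 0.04 to 0.40 in mRID, and their genotype by diet terms from 0.41 to 0.84. The SE of a difference was about 0.09 at each probe. Over the 8 arrays, which share 4 RNA samples, the log2 signals of a pair of Acta2 probes correlated at 0.41 (ILMN_2693895 and ILMN_2710353) to 0.95 (ILMN_2710354 and ILMN_2923445). The platform annotation assigns the 4 probes to the same transcript; where each lies in it was not analysed here.

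**Figure D2:**
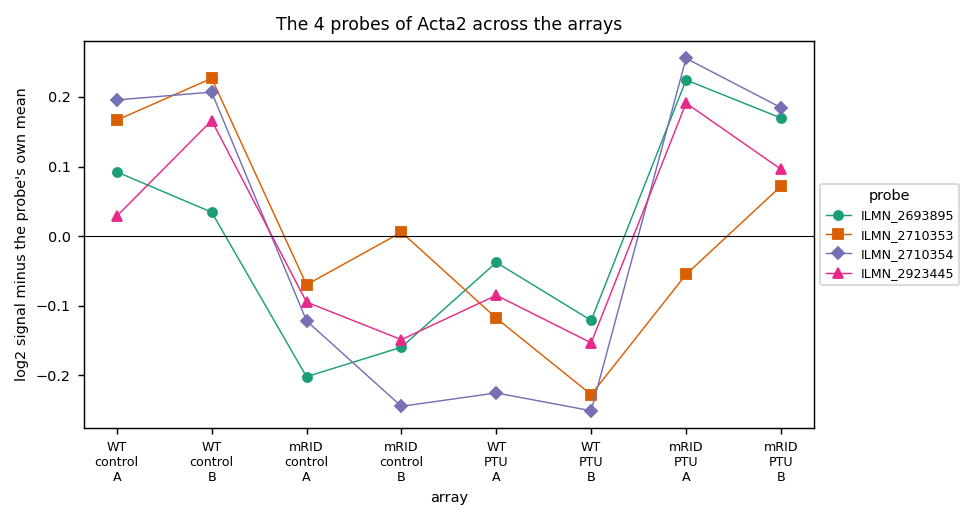
Log2 signal of each of the 4 Acta2 probes on each of the 8 arrays, minus the probe's own mean. Lines join the values of 1 probe; ILMN_2710354 stands high in wild-type control and mRID PTU and low in the other groups, and ILMN_2710353 is lower in mRID PTU than the other probes.

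The arrays hold no Acta2 change of 1.5-fold between any of the 4 compared pairs of groups. In the order of levels, no step between neighbouring groups passed at ILMN_2693895, ILMN_2710353 or ILMN_2923445, where the largest was 0.22 ± 0.09, up to wild-type control at ILMN_2923445 (adjusted p = 0.172). At ILMN_2710354 the step from mRID control up to wild-type control had an adjusted p of 0.0406 and missed the fold, and its other steps did not pass.

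Actg2 encodes the gamma actin of visceral smooth muscle. Its probe read 10.58 and 10.70 in wild type on control chow, 9.88 and 9.87 in mRID on control chow, 9.76 and 9.59 in wild type with PTU, and 9.84 and 9.86 in mRID with PTU. Wild type on control chow stood above the other 3 groups, and no array of theirs reached it.

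The genotype difference of Actg2 on control chow was -0.77 ± 0.09, a fold of 1.70 (adjusted p = 0.00170). Its PTU difference in wild type was -0.97 ± 0.09, a fold of 1.96 (adjusted p = 0.000127). In mRID the PTU difference was -0.02 ± 0.09 (adjusted p = 0.903), with a 95% interval from -0.23 to 0.18. The genotype difference under PTU was 0.18 ± 0.09 (adjusted p = 0.258). The genotype by diet term of 0.95 ± 0.13 passed (adjusted p = 0.00132).

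In the order of Actg2 levels, wild type with PTU, mRID with PTU and mRID on control chow were neighbours whose steps did not pass. Only the step up to wild type on control chow passed. Set against wild type on control chow, mRID with PTU had an Actg2 difference of -0.79 (adjusted p = 0.000345), and the same pair of groups did not pass at any Acta2 probe.

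Myh11 encodes the myosin heavy chain that marks differentiated smooth muscle. Its probe read 9.26 and 9.25 in wild type on control chow, 8.73 and 8.69 in mRID on control chow, 8.55 and 8.74 in wild type with PTU, and 9.04 and 8.81 in mRID with PTU. Wild type on control chow was again highest, without overlap with any other group, and mRID with PTU lay between it and the low groups.

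Myh11 fell in wild-type lungs with PTU by 0.61 on the log2 scale (SE 0.11, adjusted p = 0.00520, a fold of 1.52). Its genotype difference on control chow was -0.55 ± 0.11 (adjusted p = 0.0210), a fold of 1.46 that missed the threshold. In mRID the PTU difference was 0.22 ± 0.11 (adjusted p = 0.232). The genotype by diet term of 0.83 ± 0.15 passed (adjusted p = 0.00527). The fall of Myh11 stood near the fold threshold and did not pass without wild-type PTU array A, where it was -0.51. It also missed the fold without background correction (-0.58), with an offset of 50 (-0.57) and with the authors' processed values (-0.55). With median scaling its genotype difference on control chow passed at -0.66.

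Mylk encodes myosin light chain kinase, which switches smooth muscle contraction on, and which endothelial and other cells make as well. Probe ILMN_2662602 read 10.13 and 9.94 in wild type on control chow, 9.998 and 9.81 in mRID on control chow, 9.61 and 9.48 in wild type with PTU, and 10.13 and 10.19 in mRID with PTU. Probe ILMN_1219471 read 11.63 and 11.81, 11.69 and 11.61, 11.28 and 11.39, and 11.95 and 11.85 in the same order of groups. At both probes wild type with PTU was lowest, below every array of the other groups, and the genotypes overlapped on control chow.

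The Mylk probes moved alike, with a correlation of 0.85 over the 8 arrays. Under PTU the genotype difference of ILMN_2662602 was 0.62 ± 0.11 and passed (adjusted p = 0.00373, a fold of 1.53). That of ILMN_1219471 was 0.56 ± 0.10 (adjusted p = 0.00406) and missed the fold at 1.48. PTU differences in wild type were -0.49 ± 0.11 (adjusted p = 0.0164) and -0.39 ± 0.10 (adjusted p = 0.0353) in the same order, below the fold.

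On control chow the genotype differences of Mylk were -0.14 ± 0.11 and -0.07 ± 0.10, with 95% intervals from -0.37 to 0.10 and from -0.29 to 0.14. Both probes passed for the genotype by diet term, at 0.75 ± 0.15 (adjusted p = 0.00834) and 0.64 ± 0.14 (adjusted p = 0.0130). The genotype call under PTU depended on the fold. With median scaling and with the authors' processed values no Mylk probe passed (0.52 and 0.58 at ILMN_2662602). Without wild-type PTU array B, ILMN_1219471 passed at 0.61 and ILMN_2662602 did not at 0.55.

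Tagln encodes transgelin, an actin-binding protein of smooth muscle. Its probe read 5.93 and 5.98 in wild type on control chow, 5.32 and 5.74 in mRID on control chow, 5.45 and 5.57 in wild type with PTU, and 5.45 and 5.53 in mRID with PTU. The wild-type control arrays were above all others, but the mRID control arrays lay far apart and none of the 5 comparisons passed.

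The genotype difference of Tagln on control chow was -0.43 ± 0.13 (adjusted p = 0.106), and its PTU difference in wild type was -0.45 ± 0.13 (adjusted p = 0.0546). Without mRID control array B, the genotype difference was -0.64 and passed (adjusted p = 0.0310), as did the genotype by diet term at 0.62. The probe lay near background, where the lowest detected probe of an array was at 4.54 to 4.69.

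Des encodes desmin, the intermediate filament protein of muscle cells. Its probe read 7.78 and 7.98 in wild type on control chow, 7.91 and 7.76 in mRID on control chow, 7.64 and 7.59 in wild type with PTU, and 7.54 and 7.44 in mRID with PTU. The arrays with PTU lay below those on control chow in both genotypes. The PTU differences were -0.27 ± 0.10 in wild type (adjusted p = 0.139) and -0.34 ± 0.10 in mRID (adjusted p = 0.0624), and neither passed. For Des the genotype by diet term was -0.08, with a 95% interval from -0.40 to 0.24.

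Smtn encodes smoothelin, a cytoskeletal protein of contractile smooth muscle. At its brightest probe, ILMN_2695181, the 8 arrays read between 10.03 and 10.19, and at ILMN_2955973 between 9.15 and 9.32. No comparison passed at any of its probes. The genotype difference on control chow was -0.07 (95% interval -0.26 to 0.12) at ILMN_2695181 and -0.04 (-0.24 to 0.15) at ILMN_2955973. The PTU difference in wild type was -0.08 (-0.27 to 0.11) and 0.04 (-0.16 to 0.23) at these probes. These intervals lie within 1.5-fold.

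The dim Smtn probe ILMN_2621581 read between 5.14 and 5.71, and the arrays of mRID with PTU alone spanned 5.14 to 5.56. Its intervals were wider, from -0.67 to 0.02 for PTU in wild type. The Smtn probes did not move together over the arrays, with pairwise correlations of -0.33 to -0.05.

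Lmod1 encodes leiomodin 1, which nucleates actin filaments in smooth muscle. Its probe read between 4.76 and 5.26 over the 8 arrays, close to background, and no comparison passed. Its largest difference was for PTU in wild type, at -0.25 (95% interval -0.51 to 0.00). In the order of levels no neighbouring groups passed at any Myh11, Mylk, Tagln, Des, Smtn or Lmod1 probe. Cnn1 encodes calponin 1, which binds actin and restrains myosin. Its raw signals were 35.5 to 42.1, not above background on any of the 8 arrays, and no fold is given.

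**Figure D3:**
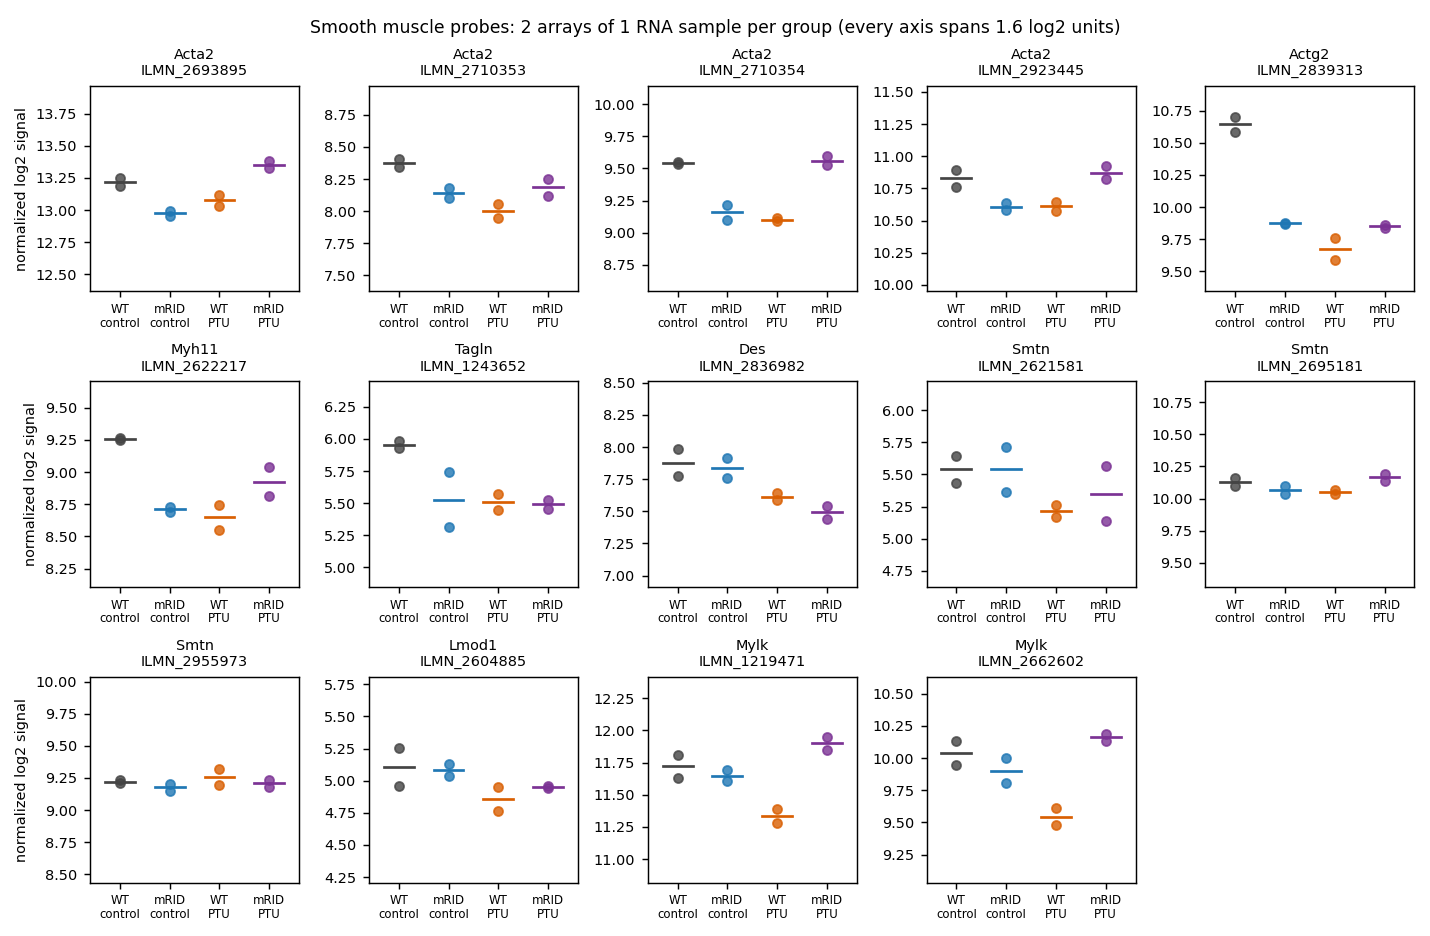
Normalized log2 signal of each tested smooth muscle probe on the 2 arrays (points) of each group, with the group mean as a line; every panel spans the same range. Actg2, Myh11 and Tagln are highest in wild-type control, the Mylk probes are lowest in wild-type PTU, and the bright Smtn probes are level.

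The lists below count genes, each by its brightest tested probe, and some other probes of these genes gave other calls. Of 10298 genes tested in that way, 1.55% passed for genotype on control chow, 4.17% for genotype under PTU, 3.54% for PTU in wild type, 3.32% for PTU in mRID and 9.36% for the genotype by diet term. The last had 631 genes with a positive and 333 with a negative sign.

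Of the other contractile and cytoskeletal genes of smooth muscle, 21 of 28 listed were on the array and 18 were tested. None passed for genotype on control chow or for PTU in wild type in the limma fit, with medians of -0.00 and -0.12. For PTU in mRID 2 were higher, Synm (1.28) and Cald1 (0.61), and under PTU 1 was higher in mRID than in wild type, Synm (1.62). Synm encodes an intermediate filament protein that pairs with desmin, and Cald1 encodes caldesmon, which binds actin. The remaining Synm probes went the other way or stayed near 0 (-0.14 and 0.20 for PTU in mRID), and the remaining Cald1 probe gave 0.09.

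The genotype by diet term passed for 6 of these 18 genes, positive for 4 and negative for 2. Positive terms were found for Synm (1.11), Cald1 (0.77), Myl6, a light chain of myosin (0.75), and Cnn2, a calponin of many cell types (0.68). Negative terms were found for Itga7, a laminin receptor subunit (-0.64), and Actn1, which cross-links actin (-0.61). The term of Tpm1, a tropomyosin that lines the actin filament, did not pass. Pdlim3, which binds alpha-actinin, did not pass at its brightest probe, but its other probe, ILMN_1235230, was lower with PTU in wild type (-0.70) and had a term of 0.82. Tpm2, another tropomyosin, did not pass for the term at its brightest probe (0.42) but did at ILMN_2482209 (0.61). That probe was above background on 1 array of wild type on control chow. It was so on no array of mRID on control chow or of wild type with PTU. It therefore entered the tests only through mRID with PTU, where it was highest, so this call is no support for the term.

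Among regulators of smooth muscle transcription 16 of 21 listed were tested. Srf, which encodes serum response factor, did not pass in any comparison, with differences of 0.08 and -0.12 for genotype and 0.22 and 0.02 for PTU. Myocd, which encodes myocardin, was higher in mRID than in wild type under PTU by 0.67 ± 0.12 (adjusted p = 0.00452), and its genotype by diet term was 0.91 ± 0.17 (adjusted p = 0.00575).

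Mef2c, a MADS box factor of muscle and endothelium, was higher under PTU in mRID than in wild type (1.30), was raised by PTU within mRID (0.96), and had a term of 1.20. Its 3 probes passed in all of these, although 1 of them was not above background in mRID on control chow. Klf4, which represses smooth muscle genes in cultured vascular cells, was lower in mRID on control chow (-0.65) and with PTU in wild type (-0.64). Its 3 probes disagreed under PTU, where the genotype difference was -0.03, 0.82 and 1.14. Foxf1, a mesenchymal factor of the lung, had a term of 0.68. In this list 1 gene was lower for genotype on control chow and 1 for PTU in wild type, 2 were higher for genotype under PTU, 1 was higher for PTU in mRID, and 4 had a positive term.

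None of the 9 tested receptors, channels and kinases of smooth muscle contraction, of 23 listed, passed in any comparison in the limma fit, with medians from -0.15 to 0.15. Of 11 tested pericyte and vascular smooth muscle markers (12 listed), 1 passed in 3 comparisons. It was Abcc9, a subunit of the potassium channel of pericytes, higher with PTU in wild type (0.98), lower in mRID than in wild type under PTU (-0.98), and with a term of -1.27. The other markers of this list did not pass at their brightest probes, and Mcam passed for the term (0.65) at ILMN_2614531. The list had medians of -0.14 for genotype on control chow and 0.11 for PTU in wild type.

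Of 15 markers of airway smooth muscle progenitors and myofibroblasts 11 were tested. Under PTU, Foxp1 (1.27) and Hhip (0.66) were higher in mRID than in wild type, and Foxp1 was higher with PTU in mRID (0.83). Hhip binds and restrains hedgehog ligands, and Foxp1 is a forkhead factor of lung epithelium and muscle. The term was positive for Foxp1 (1.31), Hhip (0.81) and Tgfbi, an extracellular matrix protein (0.60), and negative for Fgf10, the growth factor of distal lung mesenchyme (-0.67). No gene of the list passed for genotype on control chow or for PTU in wild type. Wnt5a, a signalling ligand of the mesenchyme, had probes that disagreed: genotype under PTU gave 0.00 at the brightest, ILMN_2511913, and 1.15 at ILMN_2472917, which also passed for PTU in mRID (1.27) and for the term (1.30).

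The other actins are set beside Acta2 because their transcripts are much alike. Acta1, the skeletal muscle actin, read 4.94 to 5.10 in 3 groups and 6.60 and 6.66 in mRID with PTU, a PTU difference of 1.63 in mRID. Actc1, the heart actin, was lower in mRID on control chow (-0.86), with PTU in wild type (-1.85) and with PTU in mRID (-0.84). Actb, the actin of all cells, was near 0 at its brightest probe, ILMN_1377923, with a term of -0.02. The 4 remaining Actb probes had terms of 0.64 to 0.97 that passed, and the 5 Actb probes ranged from 0.01 to 1.15 for genotype under PTU. That range was wider than the largest smooth muscle difference of the same comparison, 0.62 at Mylk. For PTU in wild type the Actb probes ranged from -0.81 to -0.08, beside an Actg2 difference of -0.97. They ranged from -0.63 to 0.18 for genotype on control chow, beside -0.77 for Actg2. Terms of the Actb probes ranged from -0.02 to 0.97, beside 0.95 for Actg2. The part of probe behaviour in the Acta2 and Actg2 values was not tested.

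Markers of other tissues moved with the groups as well. The summed signal of 9 tested heart muscle genes (12 listed), relative to wild type on control chow, was 0.54 in mRID on control chow, 0.29 in wild type with PTU and 0.33 in mRID with PTU. For genotype on control chow 5 of the 9 were lower (median -0.80), for PTU in wild type 5 (median -1.12) and for PTU in mRID 5 (median -0.71), and the term was positive for 5. Myl4, an atrial myosin light chain, had a difference of -1.05 for genotype on control chow. Myl2, among those lower for PTU in mRID (-0.71), was not above background on any array with PTU.

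The summed signal of 8 skeletal muscle genes was 0.73, 0.57 and 0.92 in the same order of groups, with 2 lower for genotype on control chow and 4 lower for PTU in wild type, 3 higher and 1 lower for PTU in mRID, and a positive term for all 8. That of 5 squamous epithelial genes was 0.32, 0.31 and 0.31, with all 5 lower for genotype on control chow and for PTU in wild type and a positive term for all 5. Of these, Krt13 was not above background in either PTU group, nor Krt4 and Krt14 in wild type with PTU, nor Trp63 outside wild type on control chow. Among the skeletal muscle genes, Tnnt3 was not above background in mRID on control chow, and Ckm was so on only 1 array of wild type with PTU.

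By the same measure the 8 smooth muscle genes, whose sum is mostly Acta2, stood at 0.84 to 0.85 in mRID on control chow, 0.82 to 0.84 in wild type with PTU and 1.01 to 1.05 in mRID with PTU. Wild type on control chow held the most summed heart, skeletal and squamous signal, and the most Actg2 signal. Single skeletal muscle genes went opposite ways. Myh8 read 5.94 and 5.97 in wild type on control chow and 7.07 and 6.97 in mRID with PTU. Acta1 and Mylpf were also higher in mRID with PTU than in wild type on control chow, while Tnnt1, Actn2 and Ckm were lower. The part of attached heart or upper airway tissue in the smooth muscle values was not tested.

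**Figure D4:**
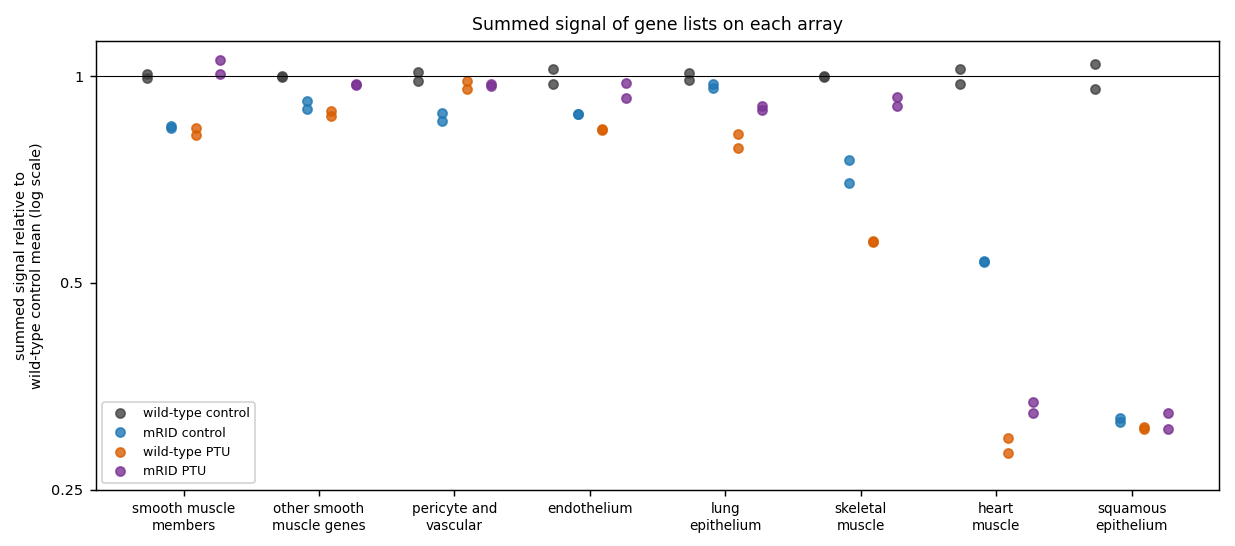
Summed normalized signal of gene lists on each array (points), relative to the mean of the wild-type control arrays, on a log scale. The smooth muscle genes stay between 0.82 and 1.05, while heart muscle lies at 0.28 to 0.30 and squamous epithelium at 0.31 in wild type with PTU.

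Lung cell types were summed in the same way. The 8 tested lung epithelial genes had summed signals of 0.97, 0.80 and 0.90 in mRID control, wild-type PTU and mRID PTU, and the 7 endothelial genes 0.88, 0.84 and 0.95. No endothelial gene passed between groups, and 1 had a positive term. For PTU in wild type 2 lung epithelial genes were lower, Scgb1a1 (-1.02) and Aqp5 (-0.59), and 3 of the 8 differences were above 0. Scgb1a1 had the most signal of this list in wild type on control chow. The lower epithelial sum in wild type with PTU is mostly its fall. The sums of 7 fibroblast genes were 0.96, 0.95 and 1.03, although single genes passed. Lum, a collagen-binding proteoglycan, was lower in all 4 comparisons between groups, with differences of -0.98 and -1.24 for genotype and -1.19 and -1.46 for PTU, and Dcn was lower with PTU in wild type (-0.86). Col1a2, a chain of type I collagen, was higher for genotype under PTU (1.00) and for PTU in mRID (1.16). The sums of 5 blood genes, mostly Hba-a1, were 0.98, 0.90 and 1.01, although single genes passed. Hbb-y, an embryonic globin, passed in all 5 comparisons. Its genotype differences were 0.87 on control chow and -0.99 under PTU. Its PTU differences were 1.18 in wild type and -0.68 in mRID, with a term of -1.86. Alas2 passed for genotype under PTU (0.80) and for the term (0.97). Of 7 cartilage genes 2 were tested, with sums of 1.21, 1.44 and 1.28 that are mostly Sox9. The 2 genes went opposite ways. Sox9 gave 0.51 for genotype on control chow and 0.77 for PTU in wild type, where only the latter passed. Col2a1 gave -0.71, which passed, and -0.58 in the same order. It was above background on only 1 mRID control array and on no mRID PTU array. None of the 3 peripheral nerve genes on the array was above background by the filter.

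Genes with the pattern most like the smooth muscle set were ranked by Pearson correlation with the mean centred profile of its 8 genes, over the 8 arrays and 863 candidate genes whose highest and lowest group means were at least 1.5-fold apart. The mean profile stood at 0.22 in wild type on control chow, -0.05 in mRID on control chow, -0.17 in wild type with PTU and -0.00 in mRID with PTU. The most alike were Nt5e (0.989), Klf2 (0.988), Pon1 (0.982), Igtp (0.982), Pkia (0.979), Krt14 (0.979), Pxdc1 (0.979), Slc13a4 (0.977), Ecm1 (0.977) and Cyp2f2 (0.974). The 8 arrays share 4 RNA samples, so these values describe 4 levels. Nt5e read 7.75, 6.94, 6.66 and 7.15 and Klf2 10.77, 9.97, 9.81 and 10.18 in the same order of groups, both highest in wild type on control chow and lowest in wild type with PTU. The mean profile is not the pattern of each smooth muscle gene. At their brightest probes Acta2, Smtn and Mylk stood highest in mRID with PTU, by steps that did not pass. Actg2, Myh11, Tagln, Des and Lmod1 stood highest in wild type on control chow.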

How the data were processed

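Per the labels' protocols, Trizol was used for total RNA, followed by a column clean-up with DNase I and labelling as biotinylated cRNA. The submitters' processing notes name GenomeStudio without a version. In the first deposited table the average signal is an intensity on a linear scale without normalization between arrays, and a detection p-value stands beside it, per the file headers. The series' value table, also deposited, holds linear intensity values whose column medians lie at 52.3 to 52.4. Each signal column had the same ranks as a column of it (Spearman 1). It was normalized between arrays by a method that no source used here gives, and served as an alternative.

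Signals were background-corrected from the detection p-values and quantile-normalized with an added offset of 16, then put on the log2 scale (neqc, limma 3.58.1, R 4.3.3). Of 25697 probes, 14965 had a detection p below 0.05 on both arrays of at least 1 group and were tested. Group means were fitted with lmFit and eBayes over all 8 arrays, with 4 residual degrees of freedom, and p-values were adjusted over 14965 probes by Benjamini-Hochberg. A second fit averaged the arrays of each group and used the additive effects of genotype and diet. A list gene is represented by its tested probe with the highest mean signal. Of each list, the genes named passed in a comparison, with at most 4 for each list and comparison. Srf, Tpm1, and the Pdlim3, Tpm2, Mcam and Wnt5a probes that differ from the brightest probe were named besides them, after their values were seen. The code was tested on simulated data. Probe symbols come from the platform annotation, which named 23978 probes. The members and lists were chosen with earlier results of these data known. The alternatives were median scaling, no background correction, an offset of 50, other filters on dim probes, the processed table, replicate blocks and leaving out each array. The number of arrays limits the precision.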

Additional observations from a re-analysis of the deposited data

Results flagged for a closer look

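At 5 probes the PTU difference in mRID lungs departed from that in wild-type lungs by the test of the difference itself, limma's genotype by diet term. The term on the log2 scale was 0.95 for Actg2, 0.84 for Acta2 ILMN_2710354, 0.83 for Myh11, and 0.75 and 0.64 for the Mylk probes ILMN_2662602 and ILMN_1219471. For Actg2, PTU went with a fall by 0.97 in wild type and with -0.02 in mRID. The other 3 Acta2 probes had terms of 0.41 to 0.52 and did not pass. Each group is 1 RNA sample, so the term compares 4 RNA samples. Over all 14965 probes tested 9.56% passed for this term, 945 with a positive and 486 with a negative sign. With 2 arrays in each group, no array could be tested as an outlier.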

How the results depend on the processing

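Of 1120 differences of smooth muscle probes recomputed under the alternatives, 1101 kept their side of the threshold, 13 no longer passed, 6 newly passed, and none that passed changed sign. Of the 1101, 34 changed sign without passing in either setting. Of the 14 probes, those that passed for genotype on control chow numbered 2 with median scaling and 1 to 2 without 1 array. For genotype under PTU they numbered 0 with median scaling and with the authors' processed values, and 1 to 2 without 1 array. For PTU in wild type they numbered 1 without background correction, with an offset of 50 and with the authors' processed values, and 1 (without wild-type PTU array A) to 3 (without wild-type control array B, with Mylk at -0.59) without 1 array. For PTU in mRID they numbered 0 throughout. For the genotype by diet term they numbered 4 to 6 without 1 array. Mylk ILMN_1219471 lost that call with median scaling (0.58) and without wild-type control array B, wild-type PTU array A or mRID PTU array A (0.55 to 0.59).

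Over all probes, the counts for genotype on control chow, genotype under PTU, PTU in wild type, PTU in mRID and the term were 213, 668, 502, 549 and 1431. With an offset of 50 they were 98, 365, 280, 266 and 804, and with the authors' processed values 95, 353, 275, 259 and 781. Without background correction those for genotype on control chow, genotype under PTU and PTU in mRID were 119, 443 and 337. The cause was not tested. With median scaling, 45 higher and 228 lower probes passed for genotype on control chow, against 67 and 146.

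With the array letter as a replicate block the counts over all probes were 219, 670, 503, 549 and 1457, and those of the smooth muscle probes did not change. With the replicate number as a replicate block, the processed values gave 95, 353, 275, 259 and 781. The deviations of arrays with the same letter correlated at -0.04 to 0.11 after normalization. These values cannot decide whether the letters pair the groups, because quantile normalization removes shifts of a whole array.

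With 1 RNA sample for each group, no value here carries the variation between animals. Probes near background (Tagln, Lmod1 and 1 of Smtn) had the widest errors, and Cnn1 gave no value. Folds of dim probes shrink with the offset added before the log. Several calls of Myh11 and Mylk lay close to the fold of 1.5 and turned on it.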
